A study of Mus musculus with 5 samples.

Results

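The HoxA cluster on mouse chromosome 6 was examined for H2AK119Ub, the ubiquitin mark that Polycomb proteins place on histone H2A, in the peak lists of 4 chromatin immunoprecipitation libraries. Its peaks were chosen by position: every listed peak that overlapped bases 52100000 to 52230000 of the mm9 build was taken, which gave 9 of the 5132 listed peaks. The genes named with the window are Hoxa2, Hoxa3, Hoxa4, Hoxa5, Hoxa6, Hoxa7, Hoxa9, Hoxa10, Hoxa11 and Hoxa13. The window was proposed with the peak values of these lists known, so the values below are a description and carry no test. With 1 library per group they compare libraries, not conditions.

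The cells were lineage-negative bone marrow progenitors of C57BL/6 mice with the genotype R26CreERT2, Ring1a-/-, Ring1b f/f, Cdkn2a-/-, which all groups shared. Ring1a and Ring1b encode the ubiquitin ligases that place H2AK119Ub, R26CreERT2 is a Cre recombinase at the Rosa26 locus that acts when tamoxifen is given, and the labels do not state whether Ring1b had been deleted by the time of the experiment. One group was not transduced, and the others were transduced with HOXA9, with PML-RARa (the fusion oncogene of acute promyelocytic leukaemia) or with MLL-AF9 (a fusion oncogene of acute myeloid leukaemia). Each group had 1 library, no control transduced without an oncogene was described, and the input sample was not analysed here. Cell type markers cannot be read from these lists. The non-transduced list held 1332 peaks, that of HOXA9 620, that of PML-RARa 1772 and that of MLL-AF9 1408, and their read depth is unknown because a peak list holds no counts.

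Hox genes encode homeodomain transcription factors that give cells their position along the body axis, and within a cluster their order on the chromosome follows the order in which they are used along that axis. Polycomb repressive complex 1 (PRC1) keeps Hox clusters silent where they are not needed and marks their chromatin with H2AK119Ub, and part of the complex is brought to DNA that is rich in unmethylated CpG dinucleotides. In blood, the genes around Hoxa9 and Hoxa10 are active in stem and early progenitor cells and are switched off as cells mature. MLL fusion proteins are known for holding these genes active in leukaemia, and HOXA9 is itself a leukaemia gene.

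The RefSeq gene table, which belongs to the later assembly GRCm38.p6, gave the order of the protein-coding genes from Hoxa2 onwards as Hoxa2, Hoxa3, Hoxa4, Hoxa5, Hoxa6, Hoxa7, Hoxa9, Hoxa10, Hoxa11, Hoxa13 and Evx1, with rising coordinates. No gene positions of the mm9 build were at hand, so peak edges were not assigned to exons, introns or single genes. The only mm9 landmarks used are those that came with the window, Hoxa2 near 52.11 Mb and Hoxa13 near 52.21 Mb. Genes between Hoxa2 and Hoxa13 in the order lie between these landmarks, and sides of the locus are named after them.

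Promoter sequences were matched by symbol for 9 of the 10 genes, with 10 promoters in all because Hoxa10 has a pair of them. They are shown for Hoxa2 and Hoxa13, which are the landmarks at the ends of the cluster, and for Hoxa9, whose product is one of the introduced oncogenes. Each sequence holds the 250 bases before the transcription start, from RefSeq, build GRCm38.p6, on the minus strand, written 5′ to 3′ with every CpG in capitals. The positions belong to GRCm38.p6 and cannot be set beside the mm9 peak positions.
Hoxa2, chr6:52164832-52165081: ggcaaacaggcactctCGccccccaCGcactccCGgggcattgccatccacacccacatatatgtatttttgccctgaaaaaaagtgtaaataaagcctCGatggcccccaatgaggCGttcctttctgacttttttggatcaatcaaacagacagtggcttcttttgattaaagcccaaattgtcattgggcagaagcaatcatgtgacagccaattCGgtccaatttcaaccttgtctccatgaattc
Hoxa9, chr6:52227371-52227620: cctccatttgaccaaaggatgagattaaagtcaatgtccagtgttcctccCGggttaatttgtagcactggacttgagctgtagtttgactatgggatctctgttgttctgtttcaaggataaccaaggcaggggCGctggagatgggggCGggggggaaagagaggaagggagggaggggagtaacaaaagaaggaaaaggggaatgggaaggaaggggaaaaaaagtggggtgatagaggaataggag
Hoxa13, chr6:52260881-52261130: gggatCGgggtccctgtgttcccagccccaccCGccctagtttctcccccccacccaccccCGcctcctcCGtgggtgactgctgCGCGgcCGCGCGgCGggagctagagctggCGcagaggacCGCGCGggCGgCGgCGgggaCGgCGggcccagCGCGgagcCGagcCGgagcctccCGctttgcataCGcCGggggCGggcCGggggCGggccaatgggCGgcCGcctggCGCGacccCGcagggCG
The Hoxa13 promoter held 35 CpGs, the Hoxa2 promoter 6 and the Hoxa9 promoter 3. The cluster is therefore uneven in the dinucleotide, and of the promoters shown that of Hoxa13 was the richest in it.

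The other promoters of the cluster lay between those of Hoxa9 and Hoxa13. Hoxa5, which patterns the neck and upper trunk and the lung, had 28 CpGs, and Hoxa6 had 24. Hoxa3, needed for the thymus and parathyroid glands, had 18, and Hoxa11, which shapes the forearm and the kidney, had 13. The Hoxa10 promoters had 20 and 7, and that of Hoxa7 had 7. Over all 32841 promoters of the same length in the table the median was 6 CpGs, and it was 15.5 over the 10 HoxA promoters. Of the 9 genes, 7 had a promoter above the general median, Hoxa2 was at it and Hoxa9 below it. At least as many CpGs as in the Hoxa13 promoter were found in 2.97% of all promoters, and at least as many as in Hoxa9 in 71.0%. The 13 other Hox genes in the table had a median of 12 CpGs over 14 promoters. Bases G and C made up 80.0% of the Hoxa13 promoter and 49.6% of the Hoxa9 promoter, against a median of 52.4% over all promoters. A CpG count describes the reference sequence and says nothing about methylation or PRC1 in these cells.

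**Figure D1:**
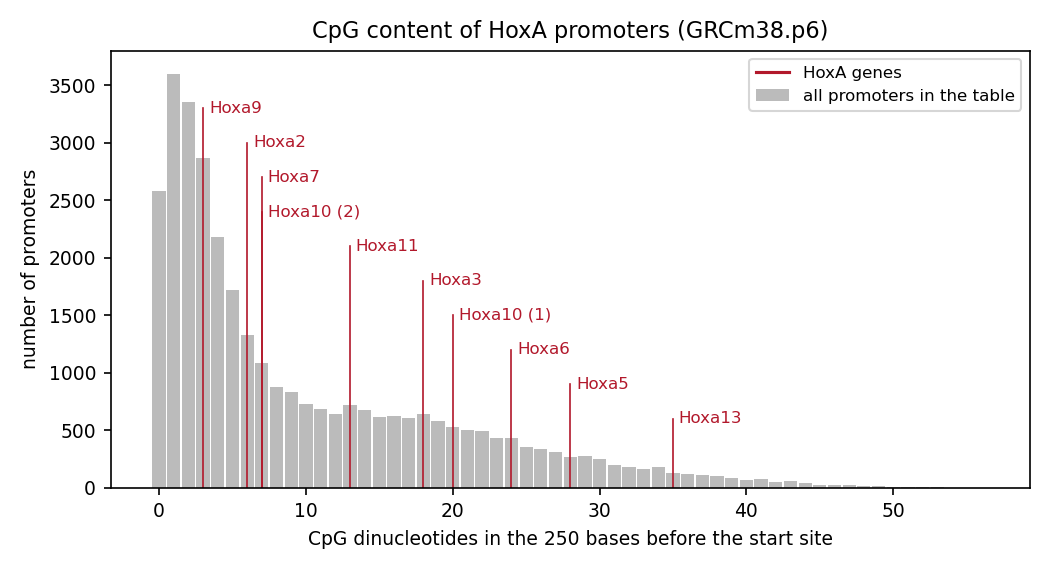
CpG dinucleotides in the 250 bases before the start site (x axis) for all 32841 promoters of the RefSeq table (grey bars, number of promoters on the y axis) and for the HoxA promoters (red lines, whose heights only separate the labels; the numbers after Hoxa10 tell its promoters apart). The HoxA promoters run from 3 CpGs in Hoxa9 to 35 in Hoxa13, against a median of 6 over all promoters.

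The cluster also carries a microRNA gene, Mir196b, which the table places between Hoxa9 and Hoxa10. Its main mature product is shown beside that of the related genes Mir196a-1 and Mir196a-2 on chromosomes 11 and 15, with the seed (bases 2 to 8, which pair with target RNAs) in capitals.
mmu-miR-196b-5p: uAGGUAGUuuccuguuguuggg
mmu-miR-196a-5p: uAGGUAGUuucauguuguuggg
The seeds are identical and the 22-base sequences differ at 1 base. MicroRNA levels were not measured in these libraries.

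In the full lists, H2AK119Ub covered most of the HoxA window in non-transduced progenitors and less of it in each oncogene library, least in MLL-AF9. The non-transduced list had 3 peaks in the window, which covered 109 kb or 84.2% of its 130 kb. The HOXA9 list had 2 peaks over 83.4 kb (64.1%), the PML-RARa list 2 peaks over 86.9 kb (66.9%) and the MLL-AF9 list 2 peaks over 45.2 kb (34.8%). The ratio of covered length to that of the non-transduced library was 0.762 for HOXA9, 0.795 for PML-RARa and 0.413 for MLL-AF9. The peaks fell into 3 merged regions, called here the Hoxa2-side region, the main region and the Hoxa13-side region. The place of the uncovered stretches differed between the libraries: HOXA9 and PML-RARa lacked the Hoxa2-side region, and MLL-AF9 lacked that region and the Hoxa2-ward part of the main one. The Hoxa2-side peak had a low score. With the best-scored 75% or 50% of peaks it was no longer listed, nor was the MLL-AF9 Hoxa13-side peak. The window ratios were then 0.958 for HOXA9, 0.999 for PML-RARa and 0.304 for MLL-AF9. Widening the window by 100 kb on both sides took in further listed peaks. In the full lists the ratios in this wider window were 0.829 for HOXA9, 0.917 for PML-RARa and 0.569 for MLL-AF9.

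**Figure D2:**
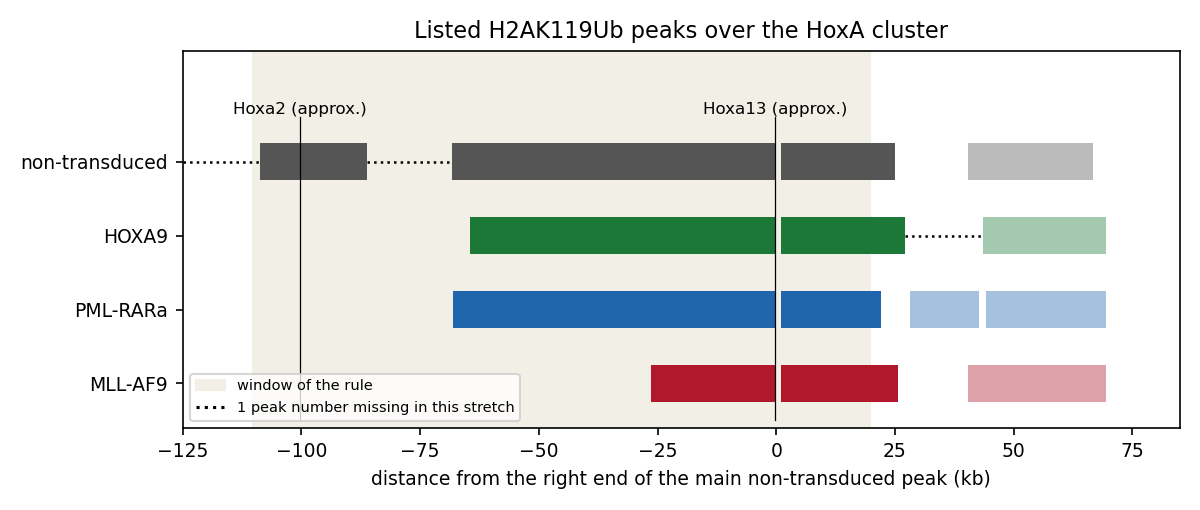
Listed peaks of the 4 libraries over the HoxA cluster (solid bars) and just beyond the window (pale bars), by distance in kb from the right end of the main non-transduced peak (x axis). The vertical lines are the approximate landmarks, the shading is the window, and a dotted line marks a stretch where 1 peak number is missing from the list. The main peak reaches 68.3 kb to the left of zero in the non-transduced library and 26.4 kb in MLL-AF9, while the right ends coincide.

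The main region was the stretch of the cluster that ended at the Hoxa13 landmark. In the non-transduced library its peak ran from 52141970 to 52210236 and was 68.3 kb wide. The PML-RARa peak ran from 52142117 to 52210269 (68.2 kb) and the HOXA9 peak from 52145743 to 52210289 (64.5 kb). These peaks were alike, with left ends within 3773 bp of each other. The MLL-AF9 peak ran from 52183835 to 52210275 and was 26.4 kb wide, so it began 41.9 kb further towards Hoxa13 than the non-transduced peak. Its covered length was 0.387 of the non-transduced one, compared with 0.946 in HOXA9 and 0.998 in PML-RARa. The right ends of all 4 peaks lay within 53 bp, at a break of about a kilobase before the next peak. When peaks across such breaks were joined, the right ends lay within 27194 bp (joining within 1000 bp, which left the non-transduced peak apart) or 5113 bp (within 2000 bp).

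The stretches of the window could thus be read by the libraries that covered them. All 4 libraries shared 26.4 kb of the main region, from 52183835 to 52210236. A further 38.1 kb, from 52145743 to 52183834, was covered in the non-transduced, HOXA9 and PML-RARa libraries and not in MLL-AF9. The next 3.63 kb towards Hoxa2 was covered in the non-transduced and PML-RARa libraries. No stretch of the main region over 53 bp was covered in an oncogene library and missing from the non-transduced one.

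Between the landmarks, the MLL-AF9 peak lay wholly on the Hoxa13 side of the midpoint at 52.16 Mb. In the 50 kb nearer Hoxa2, listed peaks covered 32.0 kb in non-transduced cells, 17.9 kb with PML-RARa, 14.3 kb with HOXA9 and 0 kb with MLL-AF9. In the 50 kb nearer Hoxa13 they covered all of the stretch in the non-transduced, HOXA9 and PML-RARa libraries and 26.2 kb (52.3%) in MLL-AF9. In the gene order, which follows the lower coordinate of each gene, the cluster begins at the Hoxa2 landmark with Hoxa2 (hindbrain and face) and Hoxa3. The Hoxa3 promoter counted above, however, lay beyond those of Hoxa5 and Hoxa6 in GRCm38.p6. The back genes, up to Hoxa11 and Hoxa13 (hand, foot and genital tract), are nearer the Hoxa13 landmark. How many genes lay to the left of the MLL-AF9 edge was not determined.

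The missing part of the MLL-AF9 peak did not lie in a gap of that list's numbering. In all 4 lists the numbers in the peak names rose along each chromosome. A number absent from a list is taken here to mark a call that the list does not hold. How the numbers were given is not stated. The MLL-AF9 main peak had number 1363, and the next listed peak to the left had number 1362 and ended at 51147329, 1037 kb away. No number was missing between them, so on this reading no numbered MLL-AF9 call was left out anywhere along the front of the cluster. None was missing to the left of the HOXA9 peak (numbers 729 and 730, 753 kb apart) or of the PML-RARa peak (numbers 1649 and 1650, 183 kb apart) either. A signal too weak to be called would leave no number.

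The Hoxa2-side region was listed in the non-transduced library alone. Its peak ran from 52101568 to 52123951, was 22.4 kb wide and spanned the Hoxa2 landmark. Its score of 808 ranked 1031 of 1332, so it belonged to the lower part of its list, whose lowest score was 700. By the numbering, none of the 3 oncogene lists had a call there that was left out. One non-transduced number, 1327, was missing in the 18.0 kb between this peak and the main one, and another, 1325, in the 537 kb to its left. If a missing number marks a call left out, the non-transduced library had such a call between the Hoxa2-side and main peaks. The oncogene lists had no missing number there. Of all 1332 non-transduced peaks, 23.2% had no overlapping listed peak in any oncogene library, and of the 302 with a score up to 808 it was 39.4% (exact 95% interval 33.9 to 45.2, counting error only). Nothing is read from this region against that background.

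The Hoxa13-side region followed the main one after a break of about a kilobase and was listed in all 4 libraries. Its non-transduced peak was 24.0 kb wide (52211246 to 52235228) and its MLL-AF9 peak 24.7 kb (52211261 to 52235937). The HOXA9 peak was 26.3 kb wide (52211155 to 52237430) and the PML-RARa peak 21.1 kb (52211210 to 52232317). The ratio to the non-transduced width was 1.10 for HOXA9, 0.880 for PML-RARa and 1.03 for MLL-AF9. In the full lists the MLL-AF9 library was therefore short of peak length in the main region and not in this neighbouring one. With stricter lists (the best-scored 75% or 50% of peaks, or lists of equal length), the MLL-AF9 peak here, whose score was low, was no longer listed while that of the other libraries was, and its ratio was 0. The left ends lay within 106 bp and the right ends within 5113 bp.

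Scores have no stated scale and were read only as ranks within the own list. The main HoxA peak stood near the top of its list in the non-transduced library (score 1773, rank 7 of 1332), in HOXA9 (score 1459, rank 5 of 620) and in PML-RARa (score 1880, rank 28 of 1772). In MLL-AF9 it had a score of 1359 and rank 110 of 1408, in the upper 7.81% of the list. The Hoxa13-side peak ranked 102 among the non-transduced peaks, 29 among those of HOXA9 and 392 among those of PML-RARa. Among the MLL-AF9 peaks it ranked 1201, with a score of 774. In MLL-AF9 this peak thus was as wide as in the non-transduced list within 0.694 kb but stood at 85.3% of the way down its list, whose lowest score was 703. Ranks in lists of different length do not measure a change of the mark.

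**Figure D3:**
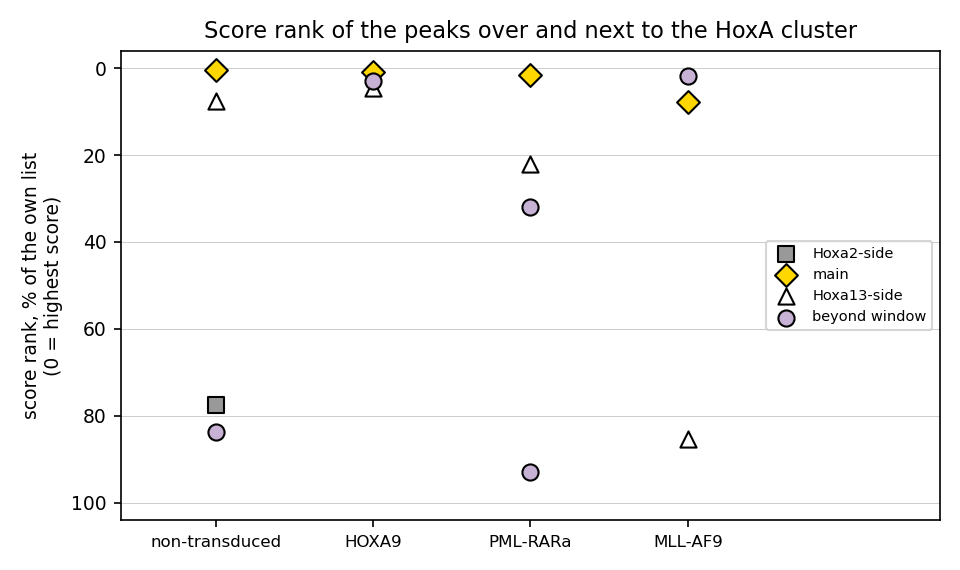
Score rank of each peak over and next to the HoxA cluster, as a percentage of the length of its own list (y axis, 0 at the top is the highest score), for the 4 libraries (x axis). The main peak is within the upper 1.58% in the non-transduced, HOXA9 and PML-RARa lists and at 7.81% in MLL-AF9, where the peak beyond the window ranks above it.

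Just outside the window, on the side where Evx1, a homeobox gene next to the cluster, follows in the gene order, every library had a further peak. It began at 52250626 and was 26.4 kb wide in non-transduced cells, and began at 52250559 and was 29.1 kb wide with MLL-AF9. With HOXA9 it was 26.0 kb wide (from 52253754) and with PML-RARa 25.4 kb (from 52254357). In the non-transduced list it had the lowest rank of the 4 peaks of the locus (1115 of 1332). In MLL-AF9 it had the highest rank of the locus, 27 of 1408 with a score of 1628, above the main HoxA peak. PML-RARa had a further listed peak of 14.6 kb from 52238399, and in HOXA9 the number 732 was missing in the 16.3 kb between the Hoxa13-side peak and the outer one. On the other side, the nearest listed peak outside the window ended at 51959390 in PML-RARa and farther away in the other lists.

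The main HoxA region was then ranked among the 309 merged regions that had a listed peak in all 4 libraries. Its MLL-AF9 ratio of 0.387 stood below the median of 0.936 (quartiles 0.705 and 1.12), and 21 regions (6.80%) had a lower one. With regions within 1000 bp joined, 23.0% had a lower one. That step adds the Hoxa13-side peaks and the peaks just outside the window to the HoxA region. The ratios of the unjoined main region in HOXA9 and PML-RARa, 0.946 and 0.998, lay near the medians of 0.913 and 1.02. With a ratio below 0.5 taken as a called shortening, 1 of the 2 HoxA regions present in all libraries was called in MLL-AF9, where 12.3% of the 309 regions were. The call ended when peaks of each list within 1000 or 2000 bp were joined. The joined main and Hoxa13-side peaks had ratios of 0.565 and 0.559. In HOXA9 and PML-RARa neither HoxA region was called, against backgrounds of 14.9% and 5.50%. These percentages are printed as context, because the locus was chosen with its values known. Among the 51 regions with at least 50 kb of non-transduced peaks, the median MLL-AF9 ratio was 0.761, 6 regions had a lower ratio than HoxA and 17.6% were below 0.5.

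**Figure D4:**
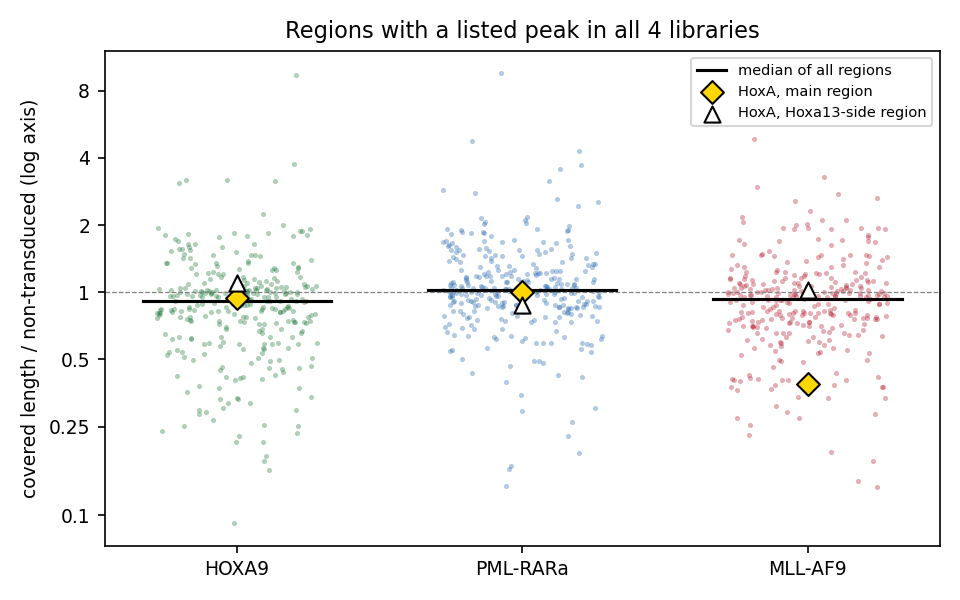
Covered length relative to the non-transduced library (y axis, log scale) in the 309 regions with a listed peak in all 4 libraries, for each oncogene library (x axis). Points are regions spread sideways at random, black lines are medians, and the marked symbols are the HoxA regions. The main HoxA region lies at 0.387 in MLL-AF9 and near the medians in HOXA9 and PML-RARa.

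The shape of the MLL-AF9 difference was one-sided. In 249 regions each library had exactly 1 peak, so that both ends could be compared. The left end of the MLL-AF9 peak lay 41.9 kb further inward at HoxA, and 1 other region had a larger inward shift of that end (up to 43.9 kb). The median absolute shift of the left end was 1.64 kb. The right end differed from the non-transduced one by 39 bp, and 15 of the 249 regions, HoxA included, had a difference that small. Counting either end, 4 regions had a larger inward shift in MLL-AF9. Where the peaks overlap, an inward shift is smaller than the non-transduced peak width. The median width in the full non-transduced list was 18.3 kb. Many regions could therefore not reach 41.9 kb, and these counts do not show how unusual the HoxA shift was. In the 51 regions with at least 50 kb of non-transduced peaks, the median left-end spread over the 4 libraries was 19252 bp. A wider spread than the 41865 bp of HoxA was found in 5 of them. At the same locus the left end lay 3.77 kb further inward in HOXA9, where 62 regions had a larger shift, and by 0.147 kb in PML-RARa, where 85 did. The 3 comparisons share the 1 non-transduced library.

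**Figure D5:**
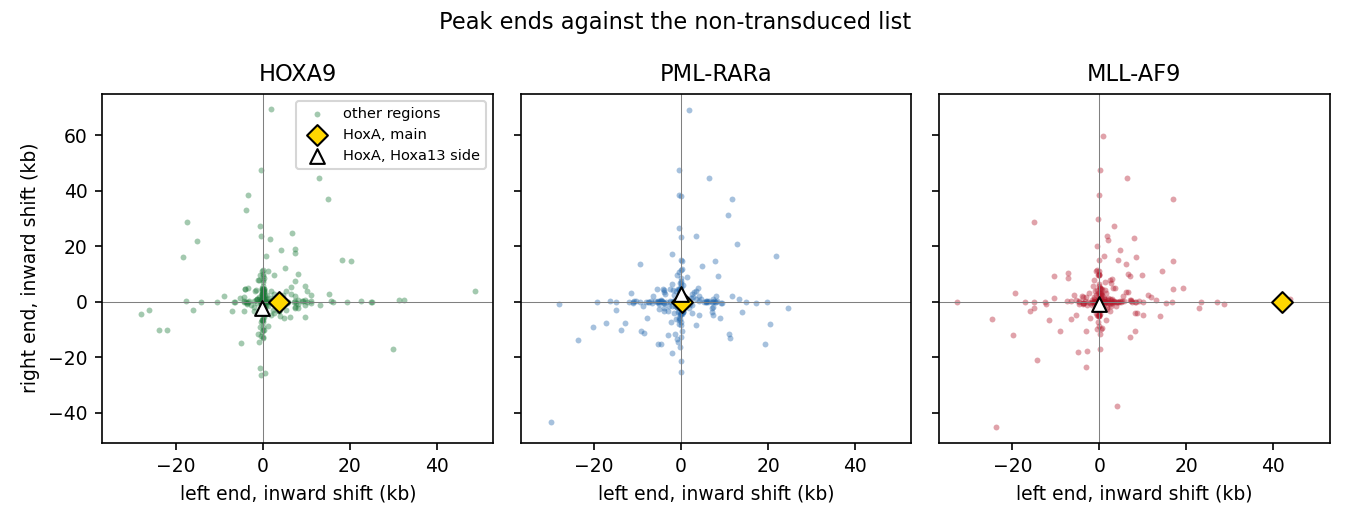
Inward shift of the left end (x axis, kb) and of the right end (y axis, kb) of each oncogene library's peak relative to the non-transduced peak, in 249 regions with 1 peak of each library. Positive values mean a shorter peak on that side. The main HoxA region stands at 41.9 kb on the left-end axis and near 0 on the right-end axis in MLL-AF9.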

How the data were processed

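H2AK119Ub ChIP-seq was done on 4 libraries of lineage-negative progenitors. The authors deposited a peak list with a score per peak for each library, and the scale of the score is not stated. Per the submitters' processing notes, Bowtie and MACS2 were used with the mm9 build; versions, parameters, use of the input and any filter on the score are not stated in the labels or files. Lists hold no counts, so depth is unknown and intervals cover counting error only. The window, genes and comparisons were chosen with earlier results of these data known. Starts were taken to count from 0, as in BED files, and are printed counting from 1. Peaks of all lists that overlapped or touched were merged into regions, and covered lengths and ends were taken per list. Each group had 1 library, so no test was made. The genes named are the 10 of the window and the neighbouring gene Evx1, and the other Hox genes as a group. The regions called broad had at least 50 kb of non-transduced peaks. The rank among regions and the missing numbers describe these lists only. Of the promoters, the 250 bases before the start were used. Alternatives were stricter lists (upper 75% or 50% by score), equal list length (620 peaks), joining of peaks within 1000 bp, a window wider by 100 kb on both sides, ranking by width, and the whole 300-base promoter. Joining within 2000 bp, equal list length for the ranking among regions, and the 50 kb stretches on both sides of the midpoint between the landmarks were added after seeing the data. The interval code passed 5 of 5 checks on simulated data with 200 regions. The work used pandas 2.3.3 and numpy 2.4.6 on Python 3.11.15, scipy 1.17.1 for intervals and matplotlib 3.10.9 for figures.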

Additional observations from a re-analysis of the deposited data

How the results depend on the processing

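Of 65 values under alternative settings, 56 stayed within 1.5 times the reported value. The 53 bp spread of the right ends of the main peak became 27194 bp when peaks within 1000 bp were joined, because the break to the Hoxa13-side peak was 1009 bp in the non-transduced list and under 1000 bp in the others, and 5113 bp when all 4 were joined within 2000 bp. The MLL-AF9 ratio of the joined region was 0.565 and 0.559 in these settings, no longer below 0.5. When regions rather than peaks within 1000 bp were joined, the HoxA region also took in the peaks just outside the window. Then 23.0% of the regions had a lower MLL-AF9 ratio than HoxA, against 6.80% as reported and 6.02 to 8.47% in the other settings. By width in place of score, the main peak ranked at 3.90% of the list in the non-transduced library, 2.74% in HOXA9 and 20.7% in MLL-AF9. In the upper 75% or 50% by score and at equal list length, the non-transduced Hoxa2-side peak and the MLL-AF9 Hoxa13-side peak both dropped out. The MLL-AF9 ratio of the Hoxa13-side region was then 0, and the window ratios were 0.304 for MLL-AF9, 0.958 for HOXA9 and 0.999 for PML-RARa. In the window widened by 100 kb on both sides they were 0.569, 0.829 and 0.917 in the same order. No paired analysis was possible because each group had 1 library. Unknown depth limits every statement on absent peaks.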

Other observations

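The break between the main and the Hoxa13-side peak fell at the same place in every list. It was 1009 bp in the non-transduced list, 865 bp in HOXA9, 940 bp in PML-RARa and 985 bp in MLL-AF9, and no number was missing inside it in any of them. The shortest distance between neighbouring peaks was 805 bp in the non-transduced list and 802 to 804 bp in the others, so these breaks were near the shortest that the lists hold. The non-transduced list had 47 breaks of up to 1009 bp. A break of that size at an overlapping position was present in all 4 lists at 1 of these 47 places, the HoxA cluster. At 43 of them it was in no other list. The limit of 1009 bp was the widest of the HoxA breaks themselves, so HoxA was certain to count as shared. Shared breaks elsewhere that were wider in any list were not counted, so the comparison cannot tell how unusual HoxA is. The HoxA break adjoins the approximate Hoxa13 landmark. This pattern was noticed in the data and its cause was not tested.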
